A study of Mus musculus with 4 samples.

Results

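The cytosolic ribosomal protein genes encode the protein part of the ribosome that works outside the mitochondrion. They were taken from the GENCODE vM1 annotation of mm9 by name, as the autosomal protein-coding genes Rpsa, Rplp0, Rplp1, Rplp2 and those written Rpl or Rps with a number and at most a letter a, x, y or l and a further digit. This gave 79 of 21418 autosomal protein-coding genes, 47 of the large and 32 of the small subunit, on 18 of 19 autosomes with 14 on chromosome 7. A further 4 genes of the same name pattern lie on the X chromosome and are given only for comparison with their autosomal copies.

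The data were H3K36me3 ChIP-seq peak lists from spermatocytes of 2 mouse strains at 14 dpp. The wild type is C57BL/6J, called B6, and the other, called KI, is the strain B6.Cg-Prdm9<tm1.1Kpgn>/Kpgn, in which the zinc finger exon of Prdm9 comes from the CAST/EiJ allele and which otherwise carries the B6 genome. The labels call the cells spermatocytes and the study describes germ cells isolated from juvenile testes, and markers of other testis cells are given after the results. The sample titles name H3K36me3, the antibody field reads H3K36me6, and the input controls are labelled 15 dpp. The authors merged 2 biological replicates of each strain before peak calling, so each strain has 1 broad and 1 refined list, replicate errors cannot be given, and the strains could not be compared by a test. Broad regions are wide stretches of enrichment, and refined peaks are the narrower calls. The lists hold positions without heights or read numbers, so the depth behind a single region is unknown, and less mark per cell and fewer cells with the mark cannot be told apart.

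Trimethylation of lysine 36 on histone H3 is laid down over the bodies of transcribed genes by SETD2, which travels with the elongating RNA polymerase II, and PRDM9 adds the same mark at meiotic recombination hotspots. In most genes it is low at the promoter, where H3K4me3 lies, and increases along the gene towards its 3′ end. Ribosomal protein genes are short, are transcribed in nearly every growing cell and make their products in equal numbers for assembly in the nucleolus. Many start transcription within a run of pyrimidines, the terminal oligopyrimidine motif through which mTORC1 controls their translation, and many have small nucleolar RNAs in their introns.

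Nearly all of these genes lay in broad H3K36me3 regions in both strains. A gene was called broadly marked when at least 50% of its annotated span fell in broad regions. By this measure 76 of 79 genes were marked in B6, a share of 96.2% (Wilson 95% interval 89.4% to 98.7%, which counts genes only), against 43.2% of all autosomal protein-coding genes. In KI it was 77 of 79, a share of 97.5% (91.2% to 99.3%), against 41.6%. The genes are short, with a median of 3368 bp against 15535 bp, and among all 6641 autosomal genes of 1 to 10 kb 34.5% were marked in B6 and 34.6% in KI. The median share of the gene covered was 99.8% in B6 and 100% in KI, against 21.5% and 19.0% over all genes and 0% in both strains over genes of 1 to 10 kb. Broad regions held the whole gene, from first to last base, for 39 members in B6 and 40 in KI, which is 49.4% and 50.6%, whereas only 3.30% and 3.07% of all genes were covered whole. Among genes of 1 to 10 kb it was 6.19% in B6 and 5.93% in KI.

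**Figure D1:**
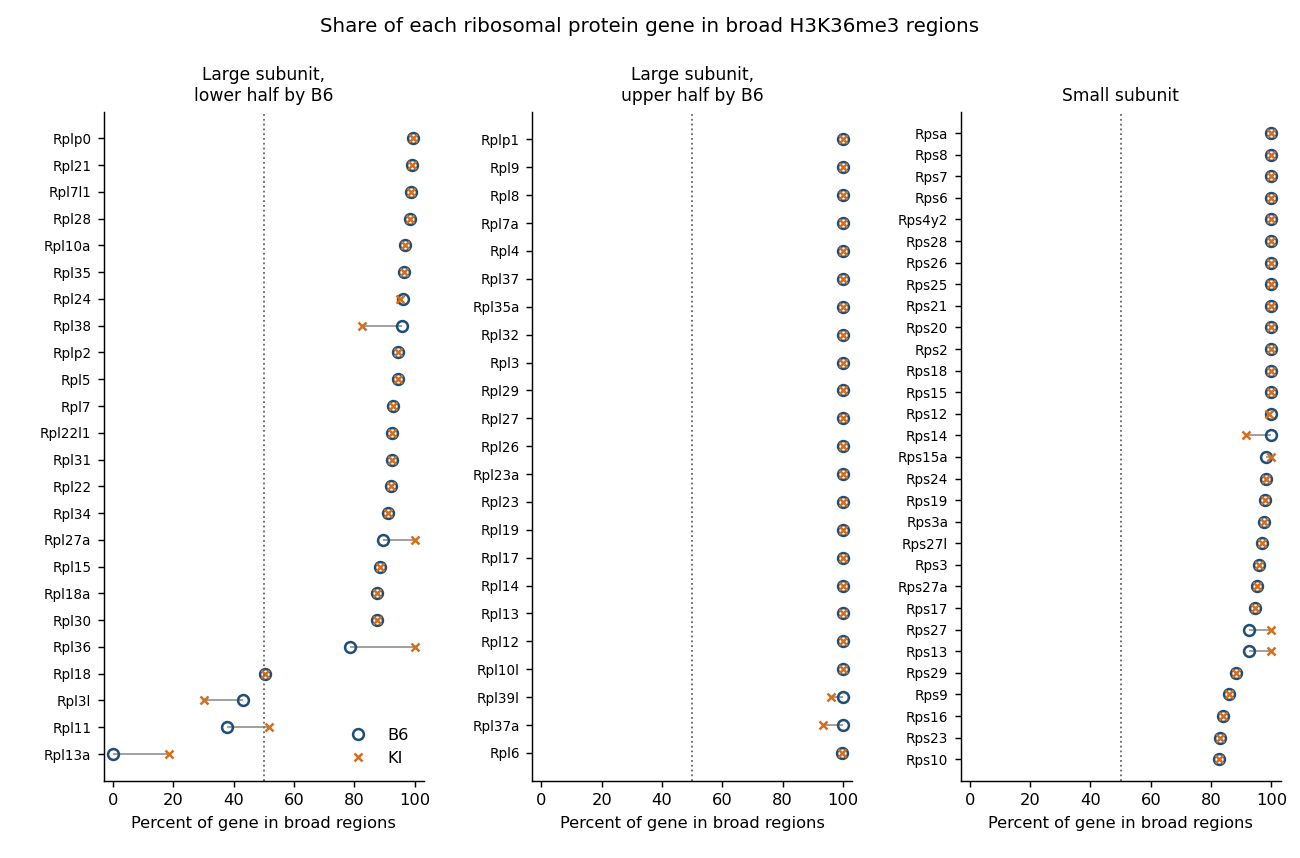
Percent of each gene's annotated span that lies in broad H3K36me3 regions (x axis) for 77 of the ribosomal protein genes, 1 row a gene, in B6 (open circles) and KI (crosses), with a line joining both values and a dotted line at 50%. All but 5 of these genes lie at 80% or more in both strains, and Rpl13a, Rpl11, Rpl3l and Rpl18 stand apart at the lower left of the first panel.

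Both subunits carried the mark. All 32 small-subunit genes were marked in both strains, with values from 82.7% to 100%, and so were 44 of the 47 large-subunit genes. Rps6, the substrate of the S6 kinases, was covered whole in B6 and KI. Rps14, whose human counterpart is lost in the 5q- syndrome, was at 100% and 91.7%. Rps19, the gene most often mutated in Diamond-Blackfan anaemia, was at 98% in both strains. Rpl5, which binds 5S ribosomal RNA and the p53 regulator MDM2 together with Rpl11, was at 94.4% in both, and Rpl38, known for the Tail short mutation that alters the axial skeleton, was at 95.7% in B6 and 82.6% in KI. These 5 genes (Rps6, Rps14, Rps19, Rpl5 and Rpl38) held the mark over at least 82.6% of their length.

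The stalk of the large subunit, where translation factors dock, is built from the products of Rplp0, Rplp1 and Rplp2. Rplp0 was covered to 99.4%, Rplp1 to 100% and Rplp2 to 94.5%, with the same value in B6 and KI for each. Rpsa, which encodes a small-subunit protein also described as a laminin receptor, was covered to 100% in both strains.

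The values of B6 and KI were close. The covered share was identical in 65 of the 79 genes (82.3%), it was higher in KI for 7 and higher in B6 for 7, and it differed by over 10 percentage points for 6. Identical values were found for 51.8% of all genes and 75% of genes of 1 to 10 kb, where genes at 0% in both strains are included. Of the genes of 1 to 10 kb, 57.3% in B6 and 56.4% in KI were at 0%, against 1 member in B6 and 0 in KI. The shares thus do not compare like with like. Whether the members' share differs from that of marked genes of like length was not tested. Of the 6 genes, all of the large subunit, Rpl36 was at 78.4% in B6 and 100% in KI, Rpl27a at 89.4% and 100%, and Rpl38 was lower in KI as given above. The other 3 are the genes that fell below 50% in at least 1 strain.

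The only gene called in 1 strain alone was Rpl11, at 37.8% in B6 and 51.7% in KI. Over all genes, 3.06% were marked in B6 only and 1.39% in KI only. The annotated span of Rpl11 on chromosome 4 is 25164 bp long and joins transcripts well beyond the coding one, which measures 3663 bp and runs from 135605646 to 135609308. That transcript was covered to 91.6% in both strains, so the call in 1 strain rests on the annotated span. Rpl18, at 50.3% in both strains, was the marked gene nearest to the limit. Its span of 5379 bp overlaps Sphk2 upstream, and its main transcript of 2765 bp was covered to 97.8% in both. Rpl3l, at 43.2% and 30.0%, was the nearest gene below the limit in both strains.

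Rpl13a, whose product is released from the ribosome to silence inflammatory messages in the GAIT complex, was 1 of 2 members that stayed below 50% in both strains over the annotated span and over the main transcript. The other was Rpl3l, with the same values for its main transcript as for its span. The span of Rpl13a on chromosome 7 of mm9, from 52380928 to 52391787 on the reverse strand, had 0% of its bases in broad regions in B6 and 18.4% in KI. It overlaps Flt3l. The longest protein-coding transcript clear of Flt3l runs from 52380928 to 52384118, and 0 of its 3191 bp lay in a broad region in either strain, nor did it hold a refined peak. In B6 it lay in a gap of 12500 bp between broad regions, and in KI in a gap of 5500 bp. The KI region that follows this gap, from 52385501 to 52387500, reaches into Flt3l. It holds a refined peak from 52386156 to 52386471.

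Because the authors discarded reads with no unique position, and ribosomal protein genes have many processed pseudogenes, exact copies were counted. Windows of 100 bases, taken every 10 bases, were searched over both strands of mm9. Of the 310 windows in the short Rpl13a transcript, 0 occurred more than once. The gene's 5 repeated windows lie from 52386238 to 52386377, inside the KI refined peak, with up to 82 copies. Whether they bear on that peak was not tested. Over the 79 genes, a median of 2.20% of windows were repeated (range 0% to 15.0%), with 73 genes holding at least 1 such window and Rps6 the most. Among 6569 other genes of 1 to 10 kb the median was 0% and the mean 7.25%, against a mean of 3.28% in the ribosomal protein genes. Rps6, with the highest repeated share, was covered to 100% in both strains, and the part of repeated sequence in the cover was not tested.

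**Figure D2:**
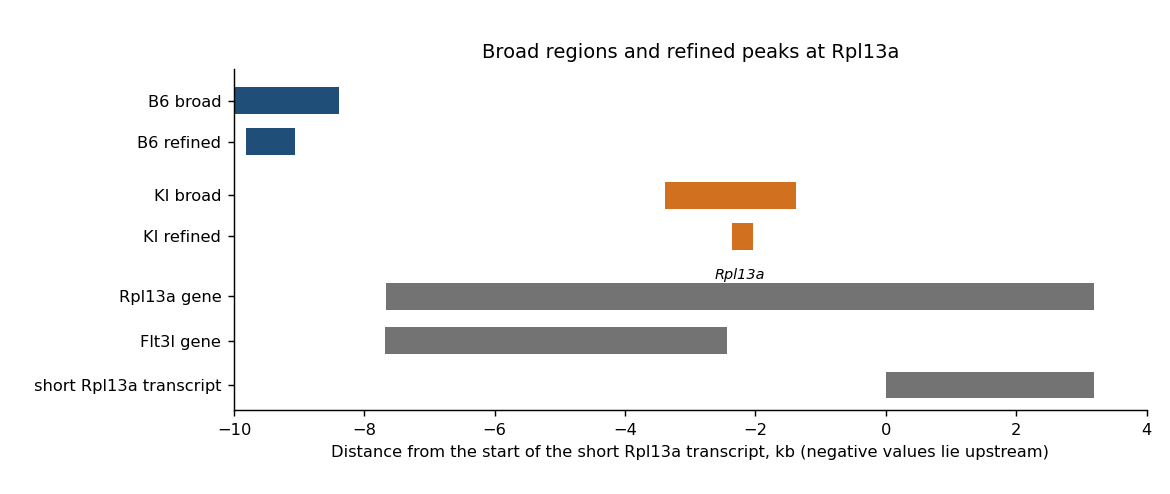
Broad regions and refined peaks of B6 (blue) and KI (orange) around Rpl13a, with the annotated spans of Rpl13a and Flt3l and the short Rpl13a transcript in grey, by distance in kb from the start of that transcript in the direction of transcription. No region of either strain touches the short transcript, and the only region over the annotated span is the one of KI upstream of it.

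Several ribosomal protein genes have a named copy, and 6 of the 7 copies were broadly marked in both strains. Rpl3l, the form of Rpl3 used in heart and skeletal muscle, was not. Rpl3 was covered to 100% in both strains, whereas Rpl3l had 43.2% of its length covered in B6 and 30.0% in KI, in its 3′ part only, since its region began 4727 bp inside the gene in B6 and 4227 bp inside it in KI. Rpl7 was at 92.8% and Rpl7l1 at 98.8% in each strain. Rpl22, an RNA-binding protein of the large subunit, was at 92.2% and Rpl22l1 at 92.5% in each strain. Rps27 was at 92.6% in B6 and 100% in KI, and Rps27l, which responds to p53, was at 96.9% in both.

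Of the copies whose parent lies on the X chromosome, which is silenced in the sex body during pachytene, all 3 were marked. Rpl10l, an intronless copy of Rpl10 that male meiosis depends on, was covered to 100% in both strains over its 1021 bp on chromosome 12. Rpl10 itself was at 100% in B6 and 84.9% in KI. Rpl39l, a copy of Rpl39 known from the male germ line, was at 100% and 96.1%, while Rpl39 was at 51.5% and 34.2%. Rps4y2, the annotation's name for the intronless copy of Rps4x now called Rps4l, was at 100% in both strains, and Rps4x was at 72.3% in both. Rps4y2 lies within Tmtc1 on the opposite strand and inside a single region of 127 kb in B6 and 55 kb in KI, so its cover cannot be told apart from that of Tmtc1. The remaining X-linked gene, Rpl36a, was at 66.5% and 87.2%. In each of the 3 families the autosomal copy was thus covered at least as far as its X-linked parent, without a test.

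The broad regions of the ribosomal protein genes began close to the gene start. The annotated first base of the gene lay inside a region for 39 members in B6 (49.4%, Wilson 95% interval 38.6% to 60.2%), against 5.92% of all genes. In KI it was 40 (50.6%, 39.8% to 61.4%), against 6.20%. Among genes of 1 to 10 kb it was inside a region in 9.32% and 9.62%. The last base of the gene, by contrast, was inside a region for 77 members in B6 and 76 in KI, against 47.5% and 46.0% of all genes. In the 500 bp just inside the start, mean cover was 75.9% in B6 and 75.8% in KI, while it was 8.03% and 8.27% over all genes. In the 500 bp just before the start it was 24.5% and 24.4%, against 6.66% and 7%. From 1000 to 500 bp upstream it was lowest, at 14.1% and 13.2% against 10.6% and 11%, and from 5000 to 4500 bp upstream it was 47.8% and 44.8% against 24% and 23.8%.

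**Figure D3:**
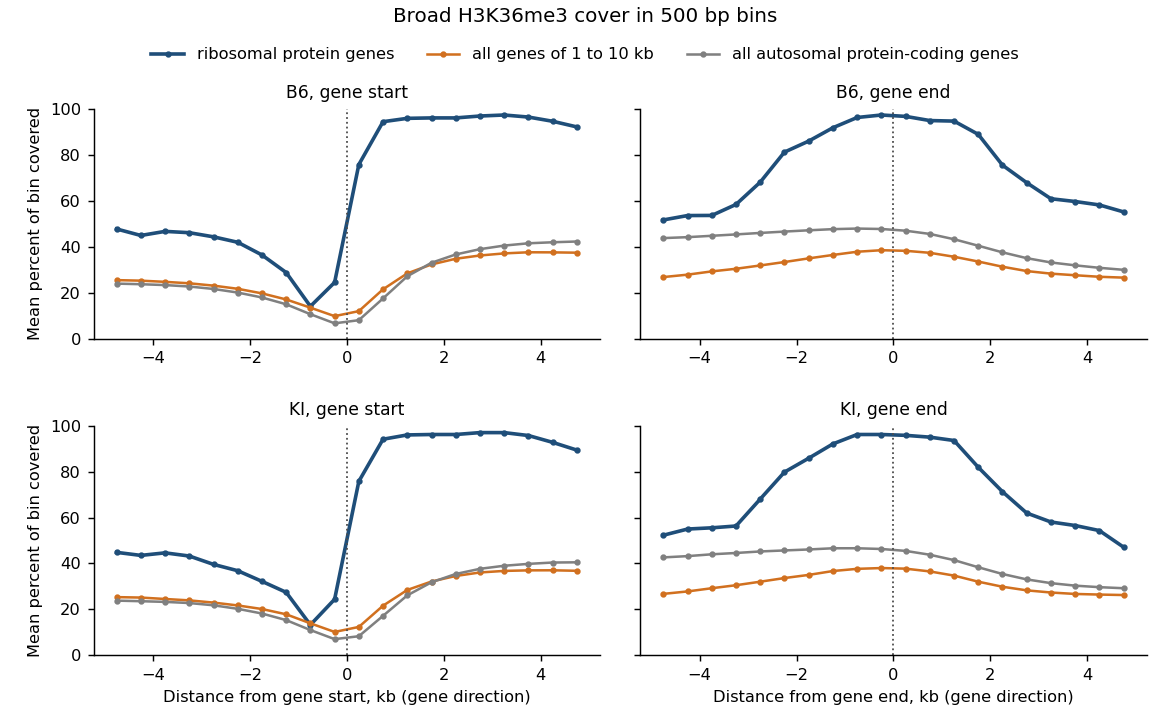
Mean percent of each 500 bp bin covered by broad regions, from 5 kb before to 5 kb after the gene start (left) and the gene end (right), in B6 (top) and KI (bottom), for the 79 ribosomal protein genes (blue), all genes of 1 to 10 kb (orange) and all 21418 autosomal protein-coding genes (grey). Cover of the ribosomal protein genes goes from under 15% in the bin that begins 1000 bp upstream to over 90% in the bin that begins 500 bp inside the gene, while both other curves increase slowly and stay below 50%.

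The edge itself was measured for the genes that were broadly marked, from the region that held most of the gene. In B6 the region of the 76 marked members began at a median of 11.5 bp upstream of the annotated start (interquartile range 187 bp inside to 203 bp upstream). In KI, over 77 members, the median was 23 bp upstream (182 bp inside to 193 bp upstream). Regions start only at steps of 500 bp, and the windows the authors used for calling were wider than this step. A single edge is thus known to no better than 500 bp. The edge lay within 500 bp of the start for 66 members in B6 (86.8%) and 68 in KI (88.3%). Among 2223 other marked genes of 1 to 10 kb in B6 it did so for 29.0%, with a median edge 596 bp inside the gene, and among 2228 in KI for 29.1%, with a median 604 bp inside.

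Other genes of the translation machinery had later edges. They are also longer than the members, whose median is 3368 bp. The median length is 7733.5 bp for mitochondrial ribosomal proteins, 15188 bp for translation factors and 12422 bp for ribosome assembly genes. The part of length in the edges was not tested. The mitochondrial ribosomal protein genes, of which 96.1% were broadly marked in B6 and 93.4% in KI, had their median edge 536 bp inside the gene in B6 (73 genes) and 566 bp inside in KI (71 genes), and 42.5% and 43.7% lay within 500 bp of the start. For translation factors the median edge was 596 bp inside in B6 and 601 bp inside in KI, and for ribosome assembly genes 523 bp and 598 bp inside. The region began over 500 bp inside the gene for 4 marked cytosolic ribosomal protein genes in B6 and 5 in KI, against 40 and 38 mitochondrial ones. Of the 20 members with no other protein-coding gene within 5 kb, 19 were marked in B6 and the edge was within 500 bp of the start for 18. In KI all 20 were marked and 19 had such an edge. Their median edge lay 11 bp inside the gene in B6 and 117.5 bp inside in KI, where 75% of these regions began inside the gene, against 48.1% for all marked members.

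**Figure D4:**
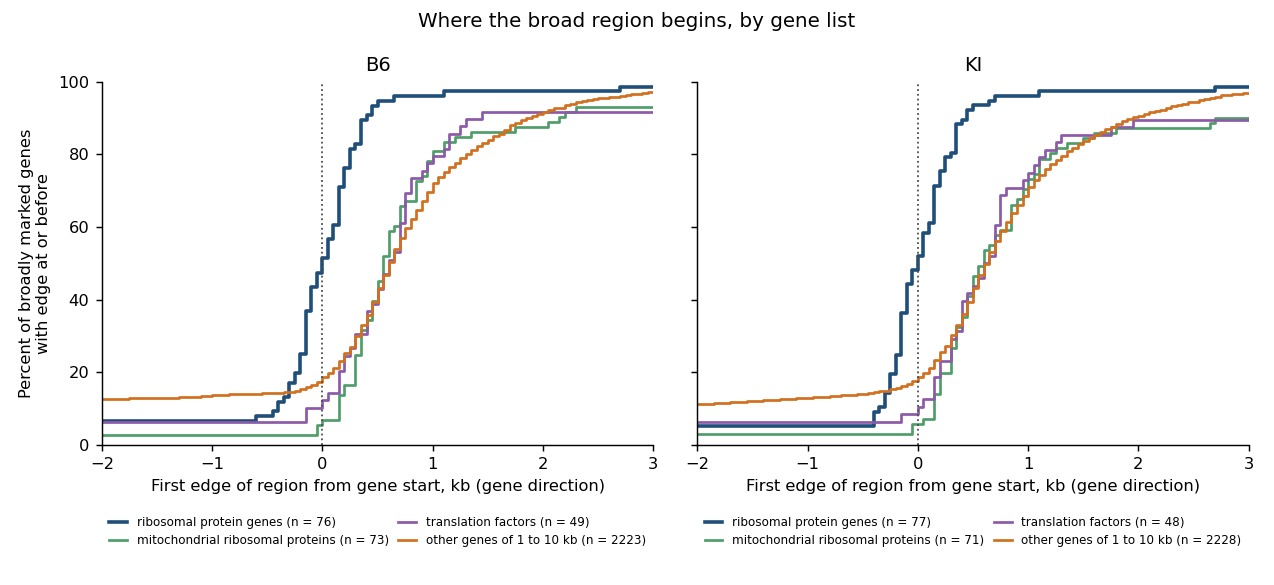
Cumulative percent of broadly marked genes (y axis) whose broad region begins at or before a given distance from the annotated gene start, in kb along the gene (x axis), in B6 (left) and KI (right), for ribosomal protein genes, mitochondrial ribosomal proteins, translation factors and other genes of 1 to 10 kb. The curve of the ribosomal protein genes crosses the middle at about the start itself, at 11.5 bp upstream in B6 and 23 bp upstream in KI, and the other 3 cross it at 536 to 604 bp inside the gene.

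In most members the edge had the same place in both strains. It was the same base in 62 of the 78 members with a region in both, and over 500 bp apart in 3. Because regions start at steps of 500 bp, close edges can fall on the same base. Other genes were not counted in this way. For Rpl3 the region began 164 bp upstream of the start in B6 and KI, for Rps6 184 bp upstream, for Rplp1 155 bp upstream and for Rpl10l 112 bp upstream. Rplp0 had its edge 25 bp inside the gene in both strains and Rps19 111 bp inside. At Rpl8 it fell on the first base of the gene. Rpl22, in which it lay 650 bp inside, and Rps10, at 1074 bp inside, had a later edge, although the main transcript of Rps10, which starts further in, was covered whole. Among genes covered past the start, Rpl7a lay in a region that began 7283 bp upstream in B6 and 283 bp upstream in KI and that reached 2 other protein-coding genes in each strain.

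At the other end the region nearly always ran on. It passed the annotated gene end in 76 of 76 marked members in B6, by a median of 4374.5 bp, and in 76 of 77 in KI, by a median of 3671 bp. Other marked genes of 1 to 10 kb gave medians of 3478 bp and 3087 bp. The exception in KI was Rpl11, whose span reaches far past its coding transcript. The downstream edge differed more between the strains than the upstream one. It was the same in 34 members, lay further out in B6 for 35 and further out in KI for 9, and was over 500 bp apart in 21. Such counts were not made for other genes. The medians above lie further out in B6 for the other marked genes of 1 to 10 kb too. The KI data were sequenced more deeply than the B6 data, and the part of depth in this difference was not tested. Rps6 shared its region with 1 other gene, in 97 kb in B6 and 85 kb in KI that run 94063 bp and 82063 bp past its end.

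The sequence at the start is shown because most marked members had the edge of their region within 500 bp of it. Some genes below, such as Rpl3l and Rpl22, had it further inside. No edge can be placed on single bases, since regions start at steps of 500 bp. RefSeq promoters, on GRCm38.p6 and so given without coordinates, were matched for 58 of the 79 genes. A run of at least 8 pyrimidines (C or T, read in the direction of transcription) within 20 bases of a start was present for 29 of these 58 genes (50%), for 18.4% of the 27018 genes with a promoter in the table and for 18.8% of the 69 mitochondrial ribosomal protein genes in it. The letters CCGGAAG, on either strand of the 300 bases from 250 before to 50 after the start, were found for 41.4% of the members, 9.93% of all genes and 37.7% of the mitochondrial ribosomal protein genes. TATAAA, on either strand, was found for 8.62%, 15.7% and 7.25%. These matches are descriptions of the letters and not of factor binding. Below, each line gives the 15 bases before the start and the first 10 transcribed, in the direction of transcription, with the longest pyrimidine run near the start in capitals as far as it falls in these 25 bases. Where a gene has several promoters in the table, the one with the longest run was taken. The genes were picked, with their runs known, to show long and short ones. Of 17 named genes with a promoter, 8 had a run of at least 8 bases and 9 did not.
Rplp2: tgcgtcagcgTCTTCCTTTCgccgc
Rps6: aagcggaagtcgggCCTCTTTTTCg
Rps27: atttccgctttcgCTCCTTTCCggc
Rpl38: agcggaagcctcgTTCTTTCCCCgt
Rps27l: ccaCTCCTCCCCgccgcctctatcc
Rpl13a: gaaaccctgcgacaagaCCTCCTCC
Rpl10l: tttggCCTCCattttgcggctggcg
Rpl3l: gagtgttctagctctgtcatttgaC
Rpsa: gtgggttatttaaggacgtcaTTTC
Rps19: gagggagcggggtgtggagggCTCT
Rpl22: cgctgCTTCTggaatgttccagctc
In Rplp2, Rps6, Rps27 and Rpl38 the run spans the annotated first base, and in Rps27l it ends before it. Rpl13a has a run of 14 pyrimidines, of which 8 are shown, and its short transcript has no broad region. The longest run had 5 bases in Rpsa and Rpl22 and 7 in Rps19, and it had 7 in Rplp0 and Rpl11, which are not shown. The copies Rpl10l and Rpl3l have no run over 5 bases, and Rpl10l was covered whole while Rpl3l was covered in part only, from far inside the gene.

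Refined peaks, the narrower calls, were found in 62 of the 79 genes in B6 (78.5%, Wilson 95% interval 68.2% to 86.1%), against 52.6% of all genes, and in 61 in KI (77.2%, 66.8% to 85.1%), against 55.0%. Longer genes have more room for a peak, and among genes of 1 to 10 kb 27.5% had one in B6 and 29.4% in KI. Most genes in these backgrounds are not broadly marked. In B6 the share was 78.9% of mitochondrial ribosomal protein genes, 79.6% of translation factors and 80% of ribosome assembly genes. In KI it was 75%, 85.2% and 86.7%. These lists hold longer genes, and a high share is not particular to the members. A peak was present in both strains for 54 members, in B6 only for 8, in KI only for 7 and in neither for 10. There were 69 refined peaks on the members in each strain. None had more than 2 in a strain, and 55 had 1 in B6 and 53 in KI. Rpl24, the longest member by annotated span at 42639 bp, had the most over both strains, with 2 in each. This span overlaps another protein-coding gene, and its main transcript of 35110 bp begins further in, at 55973917. In each strain the first peak lies upstream of that transcript and the other within it, so the count rests on the annotated span. A further 11 genes had 3 in all. Of these, Rpl11, Rpl7l1, Rpl10a, Rpl32, Rpl35a and Rps18 had 1 in B6 and 2 in KI, while Rpl3l, Rpl23, Rpl21, Rps2 and Rpsa had 2 in B6 and 1 in KI. Their lengths go from 2562 bp in Rpl10a, below the members' median, to 25164 bp in Rpl11.

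Few peaks lay near the start, in these genes and in other marked genes. Of those with their midpoint in the gene, 55 in B6 and 59 in KI, the first segment of the gene, when it was divided into 3 equal segments, held 6 in B6 and 7 in KI, the middle segment 19 and 23, and the last segment 30 and 29. Other marked genes of 1 to 10 kb had 8.60% and 10.2% in the first segment, against 10.9% and 11.9% here. Only 1 midpoint in each strain was within 500 bp of the gene start, in Rps2, at 470 bp in B6 and 356 bp in KI, and in the other marked genes it was 14 of 1569 and 22 of 1725. The main transcript of Rps2 begins further in, at 24857196, so both of these Rps2 peaks lie upstream of it. The midpoint was in an exon for 43.6% of peaks in B6 and 42.4% in KI, against 50.5% and 49.1% in the other marked genes. A refined peak was present in 22 of 32 small-subunit genes in B6 and 21 of 32 in KI, and in 40 of 47 large-subunit genes in each strain, and the Wilson 95% intervals of these shares overlap (51.4% to 82% and 72.3% to 92.6% in B6).

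Refined peaks of the ribosomal protein genes were often in the same place in both strains. In B6, 32 of the 69 peaks overlapped a KI refined peak by at least 1 bp (46.4%, Wilson 95% interval 35.1% to 58.0%), and in KI 30 of 69 overlapped one of B6 (43.5%, 32.4% to 55.2%). The shares over the whole lists were 17.6% and 14.2%, and over the other marked genes of 1 to 10 kb they were 34.8% and 31%. These last shares lie just below the members' intervals, which count peaks only and are not a test. Of the 69 peaks, 68 in B6 (98.6%) and 67 in KI (97.1%) lay on a broad region of the other strain, as did 92.4% and 92.6% of the peaks in the other marked genes. The median peak was 370 bp wide in B6 and 344 bp in KI, against 337 bp and 346 bp in the other marked genes. A stretch common to both strains was present in 29 genes, with lengths from 17 to 1430 bp. Among the longest of these genes it measured 150 bp in Rpl24, 17 bp in Rpl11, 1430 bp in Rps15a, 195 bp in Rps10, 349 bp in Rps28, 195 bp in Rps24 and 56 bp in Rps3a. In Rpl24 this stretch lies 40 kb from the gene start, in the transcript that begins beyond the others.

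Some of these common stretches are shown, since they are the bases that refined peaks of both strains have in common. The lists give no height or summit. They are at Rps2 (chr17:24855345-24855489, forward strand), Rps10 (chr17:27769406-27769600, reverse) and Rps24 (chr14:25314755-25314949, forward) on mm9, each printed along the gene's own strand, where coding bases would be in capitals.
Rps2: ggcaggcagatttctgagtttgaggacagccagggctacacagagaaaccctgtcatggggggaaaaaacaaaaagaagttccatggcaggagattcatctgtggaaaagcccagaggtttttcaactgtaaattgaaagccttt
Rps10: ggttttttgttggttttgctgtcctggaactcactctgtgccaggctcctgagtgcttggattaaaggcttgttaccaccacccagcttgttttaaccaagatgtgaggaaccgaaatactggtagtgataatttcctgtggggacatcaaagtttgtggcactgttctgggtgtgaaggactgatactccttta
Rps24: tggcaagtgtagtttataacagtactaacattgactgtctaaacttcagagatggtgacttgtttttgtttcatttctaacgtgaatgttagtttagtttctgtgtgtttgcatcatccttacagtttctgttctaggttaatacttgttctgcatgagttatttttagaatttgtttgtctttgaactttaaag
Those of Rps2, Rps10 and Rps24 hold 0 coding and 0 UTR bases of the annotation. That of Rps2 lies inside the annotated span but upstream of the main transcript. The GC content was 45.5% in Rps2, 45.6% in Rps10 and 31.8% in Rps24.

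The other genes of the translation machinery were broadly marked to a similar extent. Of the cytosolic ribosomal proteins outside the name pattern, Fau, Gnb2l1 and Rpl36al were marked in both strains, with values from 93.3% to 100%. Of 76 mitochondrial ribosomal protein genes, 73 were marked in B6 and 71 in KI, with medians of 91.9% in both. Mrpl36 was at 53.4% in B6 and 0% in KI, and Mrps28 was at 61.1% and 47.9%. Below 50% in both were Mrps34 at 39.7% and Mrpl34 at 18.3% in each strain, and Mrpl14 at 16% in B6 and 24.2% in KI. Of 54 translation factor entries in the annotation, 49 were marked in B6 and 48 in KI. This list was drawn by name and includes Eef2k, Eif4ebp1, Eif4ebp2, Eif4ebp3 and Eif4enif1. Eef2k has a second entry of 1781 bp inside the first, at 100% in B6 and 3.14% in KI, and the difference between 49 and 48 rests on it. Eef2, the factor that moves the ribosome along the message, was at 0% in both strains, and Eef1a1, which brings aminoacyl-tRNA to the ribosome, was at 30.3% in both. Eef1a2, the form of neurons and muscle, was at 0% in both. Of 30 ribosome assembly genes, 29 were marked in B6 and 30 in KI, and Rrs1, which takes part in large-subunit assembly, was at 0% in B6 and 50.6% in KI. A whole-gene cover was found for 4 of the 76 mitochondrial genes in B6 and 4 in KI, 5.26% in each, beside the 49.4% and 50.6% of the cytosolic ones. The mitochondrial genes are longer, with a median of 7733.5 bp against 3368 bp, and the part of length was not tested.

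**Figure D5:**
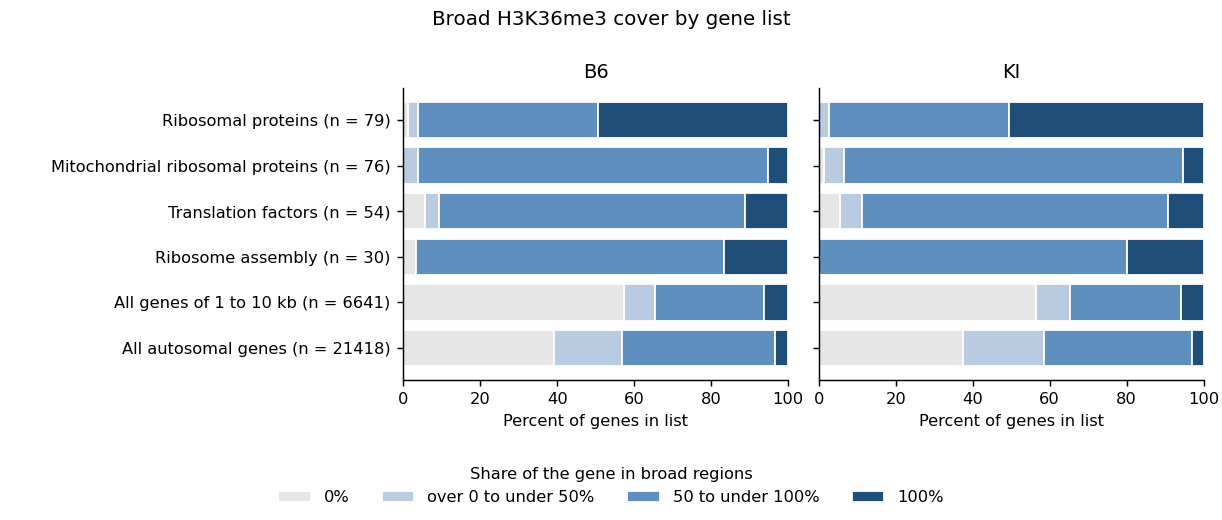
Percent of the genes in each list (x axis) by the share of the gene that lies in broad regions, from 0% (light grey) to 100% (dark blue), in B6 and KI, with the number of genes beside each list. Lists of the translation machinery have at least 88.9% of their genes at 50% or more, and only the cytosolic ribosomal proteins have about as many genes covered whole as covered in part.

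Hosts of small nucleolar RNAs and the other members were both marked. The 28 members that hold 56 small nucleolar RNA genes were marked in 27 cases in each strain, the exception being Rpl13a, and the 51 others in 49 cases in B6 and 50 in KI. The first base of the gene was inside a region in 57.1% of the hosts and 45.1% of the others in B6.

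The labelled cell type was set beside marker genes. All 7 spermatocyte markers found in the annotation (Sycp1, Sycp3, Dmc1, Spo11, Hormad1, Stra8 and Tex11) were broadly marked in both strains, and 0 of 7 genes of other tissues were. Of 4 spermatogonial markers, 3 were marked in B6 and 2 in KI, of 5 Leydig markers 1 in each (Star), and of 4 spermatid markers 1 in each, Acrv1 in B6 and Prm2 in KI. Of 5 Sertoli markers, Wt1 was at 71.7% in B6 and 8.49% in KI, Sox9 at 45.2% and 0%, Amh at 42% and 0.333%, Cldn11 at 5.19% and 0%, and Fshr at 3.24% and 4.5%. Sertoli markers were thus covered further in B6 for 4 of 5 genes. The cover of the ribosomal protein genes was higher in B6 for 7 and higher in KI for 7, but most are covered nearly whole and have little room to differ. Their downstream edge lay further out in B6 for 35 and in KI for 9, a count not made for other genes. The part of somatic cells in these values was not tested.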

How the data were processed

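The authors aligned 100-base reads to mm9 with BWA (version 1.2.3 per the labels), kept reads of unique position only, combined both replicates of a strain, and used ZINBA with the input as control for broad (unrefined) and refined peaks. The deposited lists hold chromosome, start and end only, with no signal or read count, so depth per gene and its precision could not be computed. Inputs have no list.

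Positions were read as 1-based with both ends included, since all broad starts fall on a grid of 500 bp plus 1. Overlapping broad regions were merged, and the covered share of each gene was computed in Python 3.11.15 (pandas 2.3.3, numpy 2.4.6), with code tested on simulated intervals. Genes came from GENCODE vM1, and intervals on shares are Wilson 95% intervals (scipy 1.17.1), which cover the number of genes or peaks only. Where a region edge is given, it belongs to the region with most of the gene. With 1 list a strain, no test was run.

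The members and lists were chosen with earlier results of these data known. Genes named are Rpsa and the stalk genes, copies with their parents, members marked in 1 strain only or under 10% in both (0 genes), the 5 with the most refined peaks (ties by longer gene), the 8 longest with a peak common to both strains, and 6 genes known from other biology. Rpl13a, Rpl18, Rpl36, Rpl27a, Rpl8, Rpl7a, Rps2, the other genes with 3 refined peaks and the genes named from other lists were chosen after their values were seen. Alternatives were the 50% limit, the gene model, a flank at the start and the definition of a common peak. Some genes are counted but not reported by name here.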

Additional observations from a re-analysis of the deposited data

How the results depend on the processing

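Of 54 alternative values, 42 were within 1.5 times the reported count or, for a share or median, within its 95% interval. This allows sizeable moves. With peaks within 500 bp counted as common, 47 of 69 refined peaks in B6 and 45 in KI were, instead of 32 and 30. With at least 50% of the peak required inside the gene, 49 members in B6 and 54 in KI had a refined peak, instead of 62 and 61. At the start of the transcript with the longest coding sequence, added after the data were seen, the start base was in a region for 49 and 50 members, instead of 39 and 40. With only genes of 1 to 10 kb as background, 34.5% of genes were marked in B6 and 34.6% in KI, and 27.5% and 29.4% had a refined peak. With 500 bp added on both sides of the start, 74 members in B6 and 73 in KI met a region there, against 53.9% and 52.6% of mitochondrial ribosomal protein genes. Counting broad regions of the other strain raised the common refined peaks to 68 and 67 of 69, beside 92.4% and 92.6% of peaks in other marked genes of 1 to 10 kb. The count of members marked in 1 strain only was 0 with a limit of 25%, 0 with a limit of 75%, 0 with the longest protein-coding transcript and 0 with the transcript of the longest coding sequence, and so rests on Rpl11. No paired analysis was possible because each strain has 1 pooled list, and no replicate could be left out. Without heights or counts, the strength of the mark in single genes could not be compared.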
